A study of Homo sapiens with 3 samples.

Results

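HBS1L was examined in 3 RNA sequencing libraries of HEK293 together with PELO, the gene of its protein partner, and MYB and ALDH8A1, the genes on either side of it on chromosome 6. These 4 gene names were taken by symbol from 26485 in the count tables, and all 4 were present. The members were chosen by the CPM of HBS1L, which was among the highest of the tables, and by position and protein partnership for the other 3, so the level of HBS1L is given as a description with no test. HEK293 is a long-established human cell line of embryonic kidney origin that carries adenovirus DNA, here kept in DMEM with fetal calf serum and with no treatment or genotype contrast. The libraries form 1 group (n = 3), and the labels do not say whether separate cultures were used; spreads and p-values therefore describe only these samples and may be technical. In such bulk libraries fewer cells making an RNA and less RNA per cell cannot be told apart.

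HBS1L encodes a GTPase of the family of translation elongation and termination factors. With the protein of PELO, which resembles the release factor that reads stop codons, it binds ribosomes that have stalled at the end of a broken mRNA or inside it and starts their removal, after which the ATPase ABCE1 splits the ribosomal subunits. A shorter HBS1L protein, made by alternative splicing, instead links the SKI complex to the RNA exosome, which degrades such mRNAs from their cut ends. MYB encodes a transcription factor of blood progenitors, and enhancers in the interval between HBS1L and MYB are known for acting on MYB in red cell precursors. ALDH8A1 encodes a dehydrogenase of the kynurenine pathway of tryptophan breakdown. The counts below are per gene, so the HBS1L isoforms cannot be separated.

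The count tables were shallow. Gene-assigned totals ranged from 289241 to 483114 per library, 2.02% ± 0.396 (SD, n = 3) of all records, while 91.2% ± 0.472 (SD, n = 3) of records fell in no annotated feature. A single name, TSIX, held 17.1% to 28.5% of gene-assigned counts. CPM values are counts per 1000000 of the library size after scaling with edgeR's TMM factors, so that 1 count was worth 2.29 CPM in replicate 1, 2.31 in replicate 2 and 3.30 in replicate 3. A name with no count could still lie below 3 counts, which is 6.86, 6.92 and 9.89 CPM in the same order. The tables do not say on which strand reads were counted, although the library kit preserves strand. Sense and antisense reads therefore cannot be told apart under any name, HBS1L and PELO included. Of the 100 names with the highest mean CPM, 79 had an exon opposite another gene, against 31.7% of all names matched to the annotation. Another 4 had none, HBS1L among them, and 17 had no match. Whether reads were counted on the strand opposite to the named gene was not tested. Genes that every cell uses were almost without counts: the actin gene ACTB had 1, 0 and 1 counts, ACTG1 had 7, 0 and 2, and EEF2, the gene of the translocation factor of the ribosome, had 2, 1 and 4. High and low counts below, HBS1L included, are therefore given as values of these tables and not as levels of mRNA in HEK293. Of 10 HEK293 markers, 4 had a count in every library, as 29.2% of all names did. The neurofilament gene NEFL led with 16, 12 and 22 counts. PAX2, LHX1 and CHGA were among the markers with no count in any library. NEFL shares 490 bp of exon with an opposite-strand gene.

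The promoters of HBS1L, MYB and PELO are shown because these genes lie at opposite ends of the measured range while all 3 start in a window with more CpG than the median promoter. Each runs from 250 bases before to 50 after the annotated start and comes from RefSeq on GRCh38.p14, at chr6:135054773-135055072 on the minus strand for HBS1L, chr6:135181058-135181357 on the plus strand for MYB and chr5:52787666-52787965 on the plus strand for PELO. The HBS1L window lies inside the span that GENCODE gives the gene, whose longest models start further upstream. Capitals mark matches on either strand to the palindromic core of the NRF1 motif, in which the sixth base may be either pyrimidine, and to AAGATGGC, a YY1 motif.
HBS1L: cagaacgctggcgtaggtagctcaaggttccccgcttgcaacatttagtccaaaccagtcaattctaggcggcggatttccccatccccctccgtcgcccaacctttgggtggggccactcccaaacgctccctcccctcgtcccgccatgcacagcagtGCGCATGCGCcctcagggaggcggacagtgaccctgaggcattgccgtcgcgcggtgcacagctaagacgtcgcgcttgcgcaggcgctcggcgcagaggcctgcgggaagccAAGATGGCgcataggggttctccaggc
MYB: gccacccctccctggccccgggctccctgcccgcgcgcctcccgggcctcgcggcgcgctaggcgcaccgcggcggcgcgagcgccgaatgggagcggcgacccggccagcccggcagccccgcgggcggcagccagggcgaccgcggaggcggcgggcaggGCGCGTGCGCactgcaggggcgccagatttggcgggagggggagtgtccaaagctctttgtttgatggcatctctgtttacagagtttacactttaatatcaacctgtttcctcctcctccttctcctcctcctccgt
PELO: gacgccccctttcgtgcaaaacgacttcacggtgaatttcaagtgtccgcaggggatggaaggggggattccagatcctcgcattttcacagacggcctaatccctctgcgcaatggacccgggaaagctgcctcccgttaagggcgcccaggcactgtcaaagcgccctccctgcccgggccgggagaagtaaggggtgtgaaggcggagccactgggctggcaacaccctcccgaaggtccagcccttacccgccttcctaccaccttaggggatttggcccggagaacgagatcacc
The HBS1L window held 1 match to the NRF1 core and, nearer the start, 1 to the YY1 letters. MYB held 1 match to the NRF1 core and none to the YY1 letters, and ALDH8A1 and PELO held neither. The NRF1 core occurred in 2.77% and the YY1 letters in 2.89% of 35116 promoters of this length. Motif letters were chosen after the promoters had been read, and the NRF1 core was tried in 3 spellings. These shares therefore do not measure how unusual the matches are. None of the 4 held TATAAA, which 11.5% of promoters had. The HBS1L window had 26 CpG dinucleotides, that of MYB 35, that of PELO 19 and that of ALDH8A1 2, against a median of 14. A match is a string of letters in this window and not evidence of binding, and these libraries hold no measure of it.

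HBS1L ranked 3 by mean CPM in the tables, after TSIX and TTN. It received 3285 counts in replicate 1, 2386 in replicate 2 and 2734 in replicate 3. This corresponds to 7509, 5499.9 and 9011 CPM, or 7340.1 ± 1762 CPM (SD, n = 3). Replicate 3 was highest and replicate 2 lowest. As a share of gene-assigned counts these were 0.797% in replicate 1 (95% Wilson interval 0.770% to 0.825%), 0.494% in replicate 2 (0.475% to 0.514%) and 0.945% in replicate 3 (0.911% to 0.981%), so the intervals of the 3 libraries did not overlap. The intervals cover counting error alone.

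PELO was at the edge of detection, with 3, 1 and 2 counts in replicates 1, 2 and 3. Its level was 5.25 ± 2.56 CPM (SD, n = 3), and in no library did it exceed 3 counts. The ratio of HBS1L to PELO counts per base of exon was 429 in replicate 1, 935 in replicate 2 and 536 in replicate 3. Over the summed libraries, with 8405 and 6 counts, it was 549 (exact Clopper-Pearson 95% interval 252 to 1496). On the log2 scale, with a prior of 0.5 CPM and before length was taken into account, the difference was 10.41 ± 0.48 (SD, n = 3). Since HBS1L was chosen for its high level, the size of this ratio is a description.

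PELO occupies chr5:52787940-52804046 on the plus strand, inside the span of the integrin gene ITGA1 on the same strand. Of its 4349 exonic bases, 475 are also exon of ITGA1, and its transcript matched ITGA1 at 100% identity over those 475 bases. HTSeq sets aside reads that cannot be assigned to a single gene, and ambiguous records were 0.0184% ± 0.0002 (SD, n = 3) of all records. ITGA1 itself had no count in any library. A further 87 bases of PELO exon face AC022126.1 on the opposite strand. The part of these overlaps in the low PELO count was not tested.

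**Figure D1:**
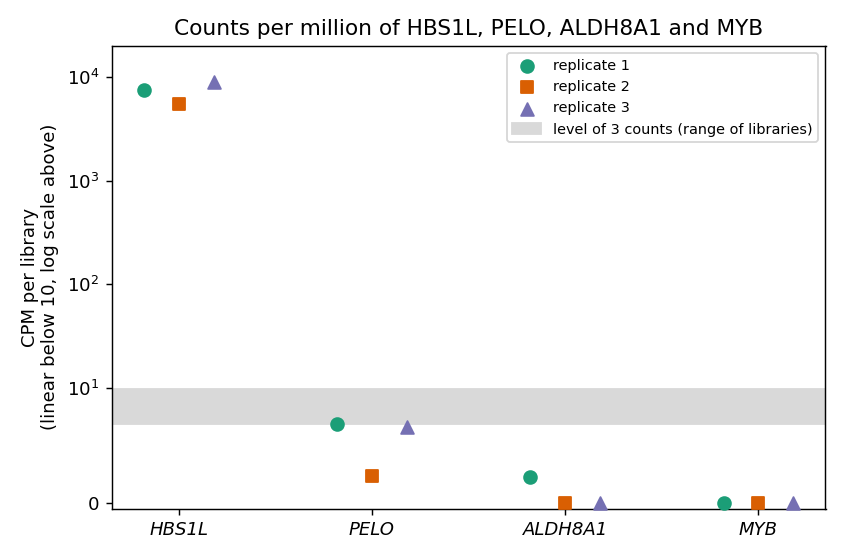
CPM of HBS1L, PELO, ALDH8A1 and MYB (horizontal axis) in each of the 3 HEK293 libraries (points), on a vertical axis that is linear below 10 CPM and logarithmic above. The HBS1L points lie between 5499.9 and 9011 CPM, whereas no point of the other genes lies above the grey band, which spans the level of 3 counts in the libraries (6.86 to 9.89 CPM).

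The flanking genes of HBS1L had almost no counts. MYB, on the plus strand at chr6:135181315-135219173, had 0 counts in all 3 libraries, as did 45.3% of all names, which allows up to 6.86, 6.92 and 9.89 CPM. Per base of exon, HBS1L was at least 542-fold higher than MYB in replicate 1, at least 394-fold in replicate 2 and at least 451-fold in replicate 3, taking 3 counts per library as the limit for MYB. ALDH8A1, on the minus strand at chr6:134917390-134950122, had 1 count in replicate 1 and none in replicates 2 and 3. HBS1L lies between them on the minus strand at chr6:134960378-135103056. MYB starts 78.3 kb beyond the upstream end of HBS1L and is transcribed away from it.

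Within 1 Mb on either side of HBS1L the annotation lists 39 genes, HBS1L included, of which 13 could be found in the tables. Of the 13, 6 had a count in every library, and this is 29.2% over all 26485 names. AHI1, a gene of the primary cilium on the far side of MYB, had 3, 2 and 2 counts. PDE7B, a cyclic AMP phosphodiesterase gene, had 1, 1 and 3. SGK1, a kinase gene induced by serum and glucocorticoids, had no count in any library, and neither had the microRNA genes MIR3662, which lies inside HBS1L, and MIR548A2. At the far edge of the window the glucose transporter gene SLC2A12 had 130, 181 and 133 counts, with 1736 bp of its exons opposite those of TBPL1, a relative of the TATA-binding protein with 7, 9 and 10 counts. By mean CPM, which is not corrected for length, SLC2A12 came next after HBS1L in the window at 384 CPM.

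**Figure D2:**
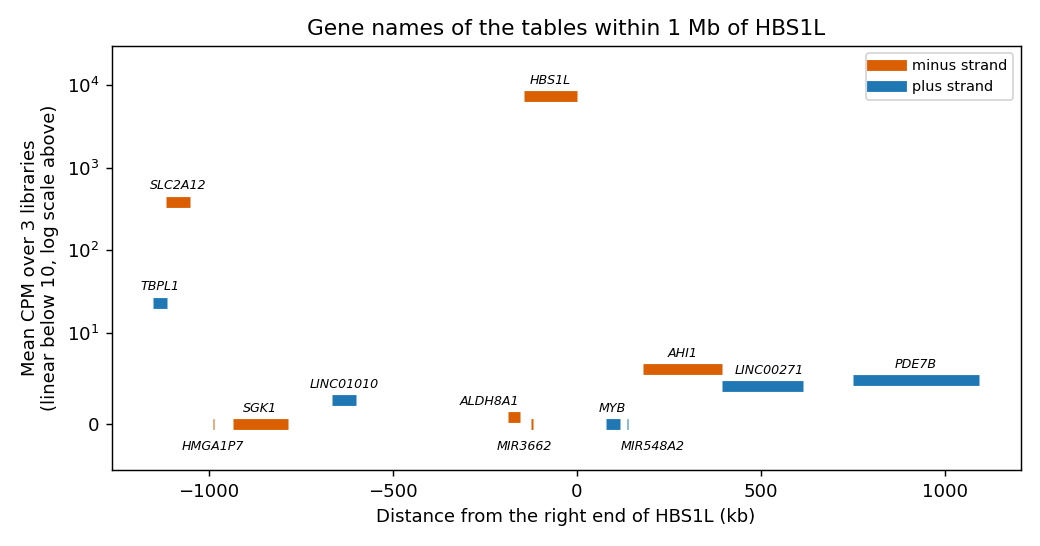
Mean CPM over 3 libraries (vertical axis, linear below 10 and logarithmic above) of the 13 gene names of the tables within 1 Mb of HBS1L, drawn as bars over their extent in kb from the right end of HBS1L (horizontal axis) and coloured by strand. HBS1L stands at 7340.1 CPM, SLC2A12 at 384 CPM and TBPL1 at 23.2 CPM, and the other 10 lie below 10 CPM.

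HBS1L shares no exon with another gene, unlike most names of its rank. Its merged exons cover 11099 bp in 21 blocks from 16 transcripts, and none of these bases is exon of another annotated gene on either strand. The antisense gene AL353596.1, on the plus strand, overlaps the HBS1L gene body over 5518 bp but shares no exonic base with HBS1L. Of the 100 names with the highest mean CPM, 79 had an exon opposite another gene, 17 had no match in the annotation and 4 had no opposite-strand exon. Over all matched names 31.7% had an opposite-strand exon. Among the 16842 matched names with none, HBS1L ranked first by mean CPM, 3.54-fold above LINC00504, a long intergenic RNA with 879, 1191 and 445 counts. Per kilobase of exon this first place was lost, with 715 CPM for PFN1P2, 661 for HBS1L and 407 for LINC00504. The other names without an opposite-strand exon next in order were PFN1P2, a profilin pseudogene with 435, 779 and 356 counts, and MARCH1, a ubiquitin ligase gene with 402, 654 and 337. Unlike HBS1L, these 3 names were highest in replicate 2.

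Length lowered the place of HBS1L. Per kilobase of exon it had 661 CPM and held rank 52 among matched names, and rank 55, 60 and 47 in replicates 1, 2 and 3 alone. TTN, which encodes titin of the muscle sarcomere and was next above by CPM, had 76.2 CPM per kilobase over 118976 bp of exon. COX20, an assembly factor gene of cytochrome c oxidase and the next name below, had 1305 CPM per kilobase over 4864 bp. The order of these neighbours by CPM, 9067 ± 2688 for TTN, 7340.1 ± 1762 for HBS1L and 6345 ± 1362 for COX20 (SD, n = 3 each), rests on differences smaller than the spread between libraries. HBS1L had more counts than TTN in replicates 1 and 3 and fewer in replicate 2.

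A processed pseudogene of HBS1L is annotated on chromosome 4 from 2088718 to 2090617. This pseudogene, AL136360.1, aligned to an HBS1L transcript over 1900 bp at 94.7% identity on the sense strand. It was the single match of at least 300 bp at 90% identity or more between HBS1L transcripts and those of other genes, and no such match was found on the antisense strand. The counts of HBS1L are uncertain to the extent that reads of this copy could be assigned to it, and the size of that share was not tested. No such match to another gene was found for MYB or ALDH8A1.

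**Figure D3:**
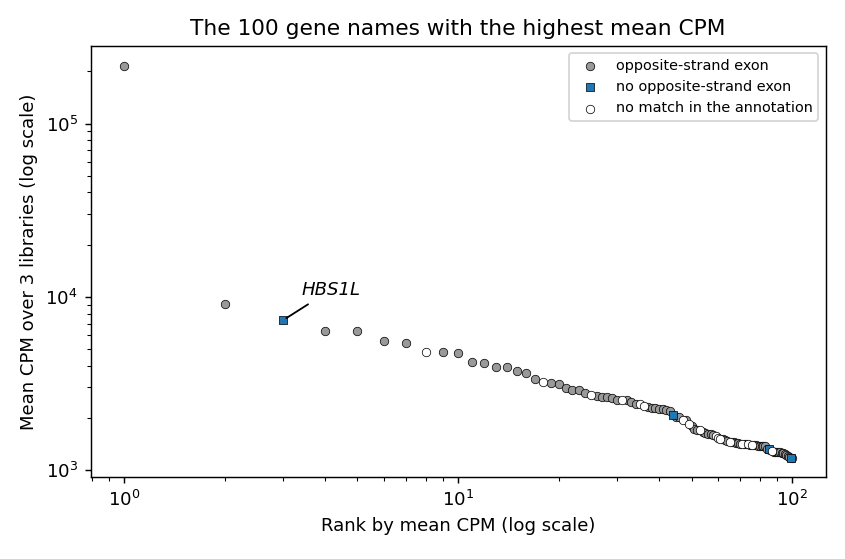
Mean CPM over 3 libraries (vertical axis, log scale) against rank (horizontal axis, log scale) for the 100 gene names with the highest mean, marked by whether their exons overlap exons on the opposite strand. HBS1L, at 7340.1 CPM, is the highest of the 4 names with no opposite-strand exon; 79 names have one and 17 have no match.

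The libraries differed in HBS1L by more than counting noise. edgeR's Poisson fit gave an adjusted p of 2.59e-68 for HBS1L, as it did an adjusted p under 0.05 for 1175 of 2564 genes tested, or 45.8%, so a difference of this kind was common and easier to detect at a high count. The coefficient of variation of HBS1L beyond counting noise was 0.239. Replicate 2 stood at 0.666 of the mean of replicates 1 and 3, and the log2 distance from the lowest to the highest library was 0.71, against a median of 0.47 over 431 other genes that had 100 counts or more in each library, 99 of which had a larger one. Without replicate 2 the coefficient fell to 0.127, the adjusted p of HBS1L was 1.25e-09 and 263 of 2784 genes passed. PELO, ALDH8A1 and MYB did not reach 10 counts in every library and were not tested.

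HBS1L was lowest in replicate 2, where genes that varied were most often highest. Of the 1175 genes that passed, 49.3% were highest and 37% lowest in replicate 2, and 18.8% had replicate 2 lowest and replicate 3 highest as HBS1L did. Of the 431 other well-counted genes used above for the log2 distance, 199 had their lowest level in replicate 2. A low point in replicate 2 was therefore common among them. TTN, with 7463, 12171 and 7568 CPM, and COX20, with 5223, 7860.3 and 5952 CPM, were both highest in replicate 2. TSIX held 28.5% of gene-assigned counts in replicate 2 and 17.9% and 17.1% in replicates 1 and 3. With TMM factors, the coefficient of variation of HBS1L beyond counting noise was 0.242 with TSIX left out of the library sizes and 0.239 with it. With total counts as library sizes it was 0.308. The part of TSIX in this variation was not tested.

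The genes whose pattern over the 3 libraries was nearest to HBS1L were LOC101929516, POM121, HOXA10-AS, RER1 and CIDEB. Likeness was the root mean square difference of log2 CPM centred on each gene's mean, which was 0.014 for LOC101929516, 0.016 for POM121, 0.024 for HOXA10-AS, 0.027 for RER1 and 0.028 for CIDEB, against a median of 0.281 over 431 genes. LOC101929516, which RefSeq names PABPC4-AS1, had 512, 380 and 434 counts. POM121, a nuclear pore gene, had 774, 548 and 641, and HOXA10-AS, an antisense RNA of the homeobox cluster, had 396, 299 and 340. RER1, a retrieval receptor of the endoplasmic reticulum, had 143, 101 and 121 counts, and CIDEB, a lipid droplet gene, had 410, 289 and 347. Exons of POM121, HOXA10-AS, RER1 and CIDEB overlap opposite-strand exons, by 1030 to 3198 bp. With 3 libraries the order of the values and a single ratio fix most of such a pattern, so the likeness is a description.

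**Figure D4:**
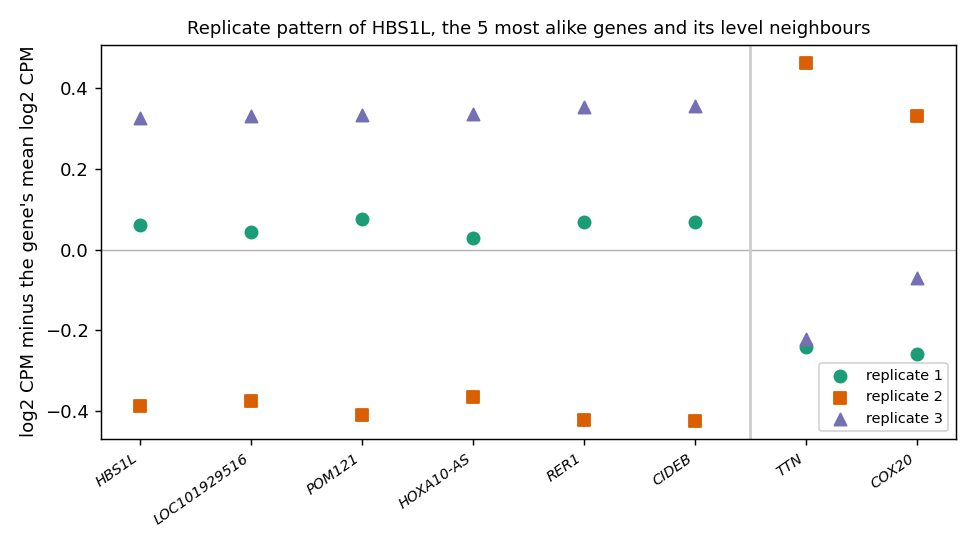
Log2 CPM of each library minus the gene's own mean (vertical axis) for HBS1L, the 5 genes nearest to it in pattern, and TTN and COX20, which flank it by level. Replicate 2 lies at -0.39 for HBS1L and below replicates 1 and 3 in the 5 nearest genes, while it lies above both in TTN and COX20.

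The other genes of ribosome rescue had far fewer counts than HBS1L. The list of 18 genes of ribosome rescue and the response to ribosome collisions, HBS1L and PELO included, had a median of 9.60 CPM, against 1.10 CPM over all names and 7.89 CPM over names with a count. All 3 libraries held a count for 11 of the 18 (29.2% of all names), and at least 10 counts in every library by 4 (9.68% of all names). HBS1L made up 91.5% of the summed CPM of the list, without correction for length. Since HBS1L was chosen for its high level, this share and the ratios below are descriptions. ASCC1, a subunit of the complex that takes apart collided ribosomes, followed with 161, 142 and 117 counts, or 360.3 ± 29.9 CPM (SD, n = 3) and 64.5 CPM per kilobase of exon against 661 for HBS1L. ABCE1, the ATPase that acts after HBS1L and PELO, had 78, 82 and 32 counts, or 158 ± 45.5 CPM (SD, n = 3). Per base of exon, HBS1L exceeded ABCE1 by 23.8, 16.4 and 48.2 times in replicates 1, 2 and 3.

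Several sensors of stalled ribosomes were near the limit of detection. ZNF598, the ubiquitin ligase that recognises collided ribosomes, had 0, 0 and 1 counts, and EDF1, a collision sensor, had 0, 1 and 0. ASCC2 and TRIP4, further subunits of the ASCC1 complex, had no count, and ASCC3, its helicase, had 10, 10 and 4. GTPBP1 and GTPBP2, GTPases of the same family as HBS1L, had 3, 4 and 1 counts and 4, 19 and 11 counts. GNB2L1, the gene of the ribosomal scaffold protein RACK1, had 7, 7 and 3. In the variation test, which 45.8% of all tested genes passed, 3 of the 4 genes with enough counts did so, namely HBS1L, ABCE1 (adjusted p = 0.0235 with edgeR's Poisson fit) and RNF10, a ubiquitin ligase gene of ribosomal proteins (12, 31 and 16 counts, adjusted p = 0.0287). ASCC1 did not (adjusted p = 0.481). The exons of ASCC1, ABCE1 and RNF10 overlap opposite-strand exons by 139, 745 and 84 bp, whereas those of HBS1L do not.

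Genes that act downstream of ribosome splitting were counted at levels near the median of names with a count. In the list of 10 genes of ribosome-associated quality control, which destroys the unfinished protein, 6 had a count in every library, against 29.2% of all names, and the median was 6.52 CPM, against 7.89 CPM over names with a count. NEMF, which marks the stalled chain, led with 13, 41 and 20 counts (63.4 ± 32.5 CPM, SD, n = 3), ahead of NPLOC4 with 38, 24 and 11 and UFD1L with 21, 16 and 15, both cofactors of the extraction ATPase VCP. NEMF (adjusted p = 0.00171 in edgeR's Poisson fit) and NPLOC4 (adjusted p = 0.0412) passed the variation test, as 45.8% of all tested genes did, and UFD1L did not. LTN1, the ubiquitin ligase of this pathway, had 6, 14 and 4 counts, and VCP had 0, 1 and 0.

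The SKI complex and the RNA exosome, which the short HBS1L protein connects, were read as well. Of the SKI subunits, SKIV2L had no count, TTC37 had 4, 3 and 0 and WDR61 had 0, 0 and 6. Among the exosome genes EXOSC9, a core subunit, had 219, 258 and 185 counts, or 568 ± 59.1 CPM (SD, n = 3) and 121 CPM per kilobase of exon. The catalytic subunit gene DIS3 had 445 ± 31.0 CPM and its cytoplasmic relative DIS3L 336 ± 37.7 CPM (SD, n = 3 each). These 3 genes have 254, 1218 and 116 bp of exon opposite other genes, CCNA2 and BORA among them. Of the 17 listed genes 9 were counted in each library (29.2% of all names), and 5 reached 10 counts in each, all 5 with an opposite-strand exon, a feature of 70.6% of matched names at that count. EXOSC8 was the 1 of 5 tested genes that passed the variation test, against 45.8% of all tested genes (22, 14 and 28 counts, adjusted p = 0.0106 in edgeR's Poisson fit).

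**Figure D5:**
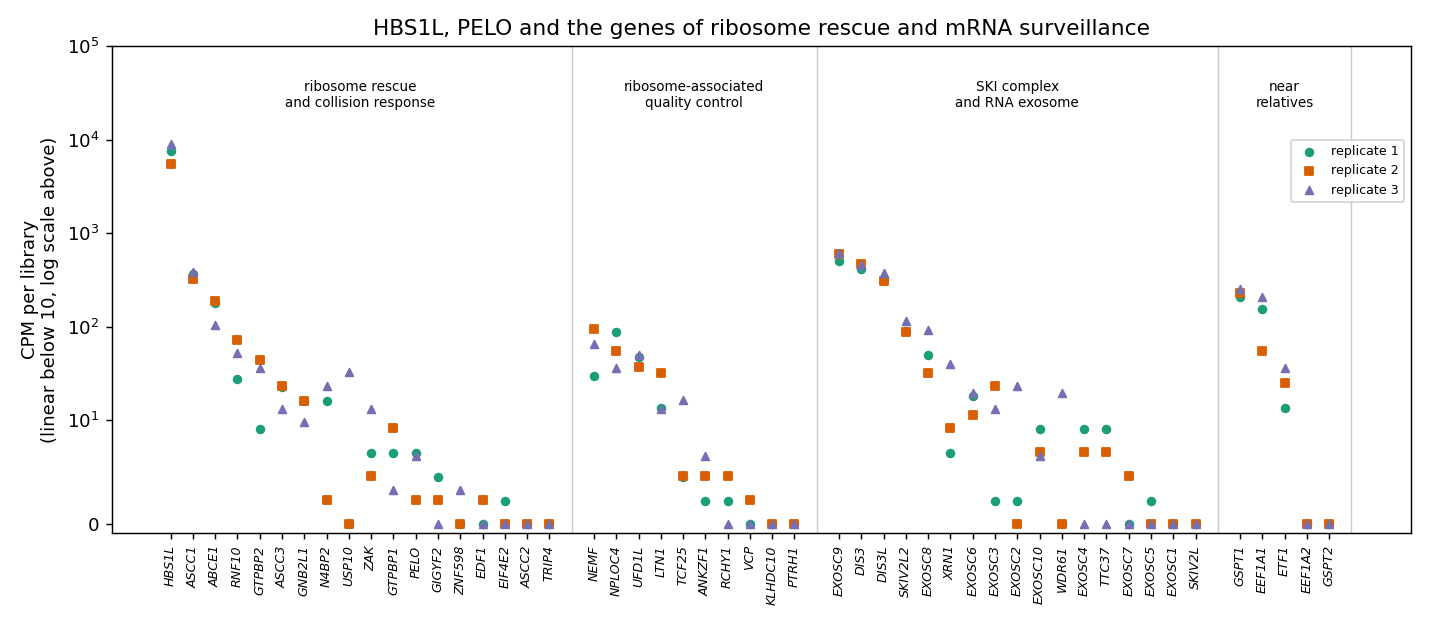
CPM per library (vertical axis, linear below 10 and logarithmic above) of genes of ribosome rescue, ribosome-associated quality control, the SKI complex and exosome, and the near relatives of HBS1L and PELO (horizontal axis, ordered by mean within a list). HBS1L lies at or above 5499.9 CPM in each library, and the next gene, EXOSC9, has a mean of 568 CPM.

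HBS1L also stood above the genes it resembles, which is a description because it was chosen for its high level. Per kilobase of exon it had 661 CPM, against 28.6 for GSPT1, the GTPase of translation termination, and 23.4 for EEF1A1, which delivers aminoacyl-tRNA. GSPT1 had 91, 100 and 76 counts, and like HBS1L has no opposite-strand exon. The ratio of HBS1L to GSPT1 per base of exon was 26.1, 17.2 and 26.0 in replicates 1, 2 and 3. EEF1A1 had 68, 24 and 63 counts and was lowest in replicate 2, as HBS1L was (adjusted p = 8.11e-08 in edgeR's Poisson fit). It has many near-identical copies in the genome, so its count is uncertain. The part of these copies in its low count was not tested. EEF2 had 2, 1 and 4 counts, and the ratios here are not ratios of mRNA levels. GSPT2 and EEF1A2, the second copies of GSPT1 and EEF1A1, had no count. ETF1, the release factor that PELO resembles, had 6, 11 and 11 counts, or 5.46 CPM per kilobase against 1.21 for PELO. Among 10 other translational GTPases, GFM2, a mitochondrial ribosome recycling factor, led with 524, 580 and 516 counts, followed by GUF1 with 36, 65 and 38 and EIF5B with 17, 21 and 8. GFM2 (adjusted p = 8.45e-07) and GUF1 (adjusted p = 0.0292) passed edgeR's Poisson fit, and exons of all 3 face opposite-strand exons.

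The families of the flanking genes were read in the same way. Over all names 45.3% had no count and 29.2% had a count in every library, and 45.8% of tested genes varied. MYBL1 and MYBL2, the relatives of MYB, had 0, 2 and 0 and 1, 1 and 0 counts, so no MYB gene had a count in every library. Of 13 globin genes and their regulators, 11 had no count, among them HBG1, HBG2, BCL11A and KLF1; HBA2 had 1, 0 and 0 counts and HBQ1 3, 0 and 2. Of 14 blood markers, 11 had no count, including PTPRC and CD34, and LYZ was the 1 with a count in every library (23, 13 and 8, with 599 bp opposite AC020656.1). Of 19 aldehyde dehydrogenase genes 8 had a count in every library, against 29.2% of all names, and ALDH8A1 was not among them. ALDH1L2, a mitochondrial folate enzyme, had 58, 139 and 35 counts, ALDH3B1 had 94, 72 and 56, and ALDH6A1 had 51, 69 and 43. The mean CPM of ALDH1L2 and ALDH3B1 was nearly equal, ALDH3B1 being higher in replicates 1 and 3. ALDH1L2 (adjusted p = 1.99e-10) and ALDH1A3 (24, 38 and 51 counts, adjusted p = 7.05e-05) passed edgeR's Poisson fit. Of the 13 genes of the kynurenine pathway, 5 had no count, TDO2, KYNU and HAAO among them, a share near the 45.3% over all names. ACMSD, whose enzyme makes the substrate of the ALDH8A1 enzyme, had 13, 11 and 20 counts and passed the fit (adjusted p = 0.0413), KMO had 14, 9 and 12, and AFMID 9, 11 and 5. The medians were 4.15 CPM for the aldehyde dehydrogenases, 1.10 CPM for the kynurenine list and 0 CPM for the globin list. Of 4 liver markers, ALB and APOA1 had no count and FGB and CYP3A4 had none in at least 1 library. A count of 0 for ALDH8A1 or MYB is a limit, not an absence.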

How the data were processed

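Each replicate had its own table of raw counts by gene symbol, which the authors made with HTSeq 0.11.2 after Trimmomatic and TopHat2 (listed as 2.2.5), on hg38, per the submitters' processing notes. Per the labels' protocols, Ribo-Zero treatment removed ribosomal RNA from total RNA before directional NEBNext library preparation; the titles instead speak of mRNA. Which annotation, strand option and filters were used is not given in the sources here. The 5 summary lines per table were left out (no feature 91.2%, not unique 6.77%, ambiguous 0.0184% of records).

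TMM factors, CPM and the Poisson fit (intercept alone, dispersion 0, deviance against chi-square, Benjamini-Hochberg adjustment, at least 10 counts in every library) came from edgeR 4.0.16 in R 4.3.3. The fit was tested on counts simulated with Poisson noise. It called 81.7% of genes changed 2-fold in replicate 2 and 0.392% of unchanged genes. The simulation used the same Poisson model as the fit, so it does not show how the fit behaves on these libraries. GENCODE release 29 on GRCh38 supplied gene models for 23900 names directly and 772 through an older symbol (93.2% in all), and exon overlaps were found with bedtools 2.31.1. Transcripts were compared with BLAST 2.17.0, and promoter motifs, whose letters were chosen after the promoters had been read, were searched on both strands. The NRF1 core was tried in 3 spellings, and with a fixed central base MYB had no match. Intervals came from scipy 1.17.1 in Python 3.11.15 and plots from matplotlib 3.10.9.

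Named genes were the 4 members, names within 1 Mb of HBS1L, its neighbours by level, the 5 genes nearest in pattern, and in each list the 3 highest members and those passing the test; near relatives were all named, and further low members of the lists, ACTB and ACTG1 were named after their values were seen. The members and lists were chosen with earlier results of these data known. Alternatives were other scalings with DESeq2 1.42.0 or total counts, no filter, a Pearson statistic, other priors and leaving out each replicate.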

Additional observations from a re-analysis of the deposited data

How the results depend on the processing

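HBS1L kept rank 3 by mean CPM with total counts, DESeq2 size factors and library sizes without TSIX, and lay between 2 and 4 when a replicate was left out. Its mean of 7340.1 CPM was 9334 CPM without TSIX in the library sizes, since the denominator shrinks, and ranged from 6322 to 8717 CPM with a replicate left out. PELO ranged from 4.32 to 7.10 CPM and ALDH8A1 from 0 to 1.21 CPM in the same way, and MYB was at 0 throughout. The rank of HBS1L per kilobase was 52 with merged exons and 40 with the longest transcript. The log2 ratio of HBS1L to PELO was 10.41, and 8.64 per kilobase of exon, where the prior of 0.5 CPM weighs more; it ranged from 10.16 to 10.62 without each replicate. HBS1L varied beyond counting noise under each alternative run, with adjusted p from 1.25e-128 with total counts to 1.25e-09 without replicate 2 (edgeR, and 2.04e-67 without replicate 1). The number of genes that varied was 1175, but 2914 with no filter on low counts, because more genes were tested, and 263 to 1093 with a replicate left out, lowest without replicate 2. Of the ribosome rescue list 11 genes had a count in every library, 11 to 12 with a replicate left out, and 4 had at least 10 counts. No paired analysis was possible because all 3 libraries form 1 group. PELO, ALDH8A1 and MYB lie at or under 3 counts in every library, so no fold between them is given.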
